A study of Mus musculus with 4 samples.

Results

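The cytosolic ribosomal protein genes encode the proteins of the ribosome that translates nuclear mRNAs. They were taken from the gene table of the series by mouse symbol: Rpsa, Rplp0, Rplp1, Rplp2, or Rps or Rpl followed by a number and at most an a, l or x. The pattern matched 83 symbols, of which 3 (Rpl32l, Rpl6l and Rps4l) are annotated as pseudogenes and were left out. The remaining 80 protein-coding genes, of 52636 genes in the table, comprise 31 of the small subunit and 49 of the large subunit. The count filter left 76 for testing, all 31 of the small subunit and 45 of the large subunit.

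RNA was sequenced from regulatory T cells sorted as CD4+CD62L+CD25bright from C57BL/6 mice aged 7 weeks. All 4 libraries carry Vav1R63W, a knock-in allele of the T cell receptor signalling adaptor Vav1, so both groups share it. Replicates 2 and 3 of the first group have that genotype alone, and replicates 2 and 3 of the other are labelled Vav1R63WThemis1-T-/-, which also removes Themis1, a T cell receptor signalling protein, in T cells. The labels name no Cre driver. They do not state whether replicates are separate mice, so a p-value here reflects the spread between libraries and that spread may be technical.

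Ribosomal proteins are made in near-equal numbers, and each 40S or 60S subunit needs a copy of almost every one. Their mRNAs are short, abundant and long-lived, and most are TOP mRNAs: they begin with a C followed by a run of pyrimidines, which lets the kinase mTORC1 and the RNA-binding protein LARP1 control how strongly they are translated. In T cells ribosome production is low at rest and climbs after activation through the T cell receptor.

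Themis, the gene of Themis1, goes against the label of 1 library. It had 283 and 97 reads in Vav1R63W replicates 2 and 3, 685 reads in the library labelled Themis1-deleted, replicate 2, and 0 reads in the library labelled Themis1-deleted, replicate 3. The replicate labelled deleted that had no Themis read is therefore also described alone in the results that follow, and "labelled-deleted" refers to the labels only. Other genes with few reads, picked after their values were seen, also fell to 0 or 1 read in 1 library. Rps6kb1 had 0 reads in labelled-deleted replicate 3 and 192 to 621 elsewhere. Nat10 had 1 read in Vav1R63W replicate 3 and 399 to 1173 elsewhere. Whether the 0 Themis reads reflect deletion was not tested. Reads assigned to genes ranged from 13963670 to 15953194 per library. Foxp3, the lineage factor of regulatory T cells, was at 636 to 1014 CPM (reads of a gene per megaread assigned to genes), and Il2ra, which encodes CD25, was at 223 to 325 CPM. The 6 neutrophil markers had no read, and 7 of 8 monocyte markers had none, the exception being the cathepsin gene Ctss at 735 to 1003 CPM. Of 8 B cell markers 4 had no read, while Ighm, which encodes the IgM heavy chain, was at 1111 to 1307 CPM. Summed over the B cell list the level was 1179 and 1303 CPM in the Vav1R63W replicates and 1312 and 1370 CPM in the labelled-deleted replicates, most of it Ighm. The other B cell markers that passed the count filter went the other way. Cd79b was at 58.3 and 63.5 CPM against 35.5 and 62.7 CPM, and Cd79a at 9.64 and 5.35 CPM against 2.38 and 0 CPM. The part of such RNA in the results was not tested.

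The start sites of 7 members are shown first, because the first bases of a ribosomal protein mRNA carry the TOP sequence. They were chosen after their values and sequences were seen, as examples that hold a motif, and do not stand for the other members. RefSeq promoter windows (GRCm38.p6, 250 bases before and 50 bases after each annotated start) matched 60 of the 80 genes by symbol. Each line below gives 60 bases before and 20 bases from the start on, 5′ to 3′ on the transcript strand, so that transcription starts at base 61. Capitals mark 3 motifs in either orientation. The first is CTTTCC, a short pyrimidine motif. The second is CCGGAAG, which holds the core of sites for ETS family factors. The third is TCTCGCGA, an element common in promoters of housekeeping genes. Rps27 (chr3:90213629-90213708, minus strand), Rps21 (chr2:180257319-180257398, plus), Rps10 (chr17:27635225-27635304, minus), Rpl28 (chr7:4792905-4792984, plus), Rpl38 (chr11:114668520-114668599, plus) and Rps28 (chr17:33824543-33824622, minus) were higher in both labelled-deleted libraries. Rps6 (chr4:86857348-86857427, minus) was lower in both in CPM and is shown beside them.
Rps27: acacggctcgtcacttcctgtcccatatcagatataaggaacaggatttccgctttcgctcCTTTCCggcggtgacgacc
Rps21: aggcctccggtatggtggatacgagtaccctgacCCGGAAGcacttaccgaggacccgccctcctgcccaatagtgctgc
Rps10: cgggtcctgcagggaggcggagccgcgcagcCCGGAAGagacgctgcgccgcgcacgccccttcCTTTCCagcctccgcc
Rpl28: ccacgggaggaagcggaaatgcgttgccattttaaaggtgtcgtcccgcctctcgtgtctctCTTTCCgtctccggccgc
Rpl38: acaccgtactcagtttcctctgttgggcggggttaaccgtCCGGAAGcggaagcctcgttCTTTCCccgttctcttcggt
Rps28: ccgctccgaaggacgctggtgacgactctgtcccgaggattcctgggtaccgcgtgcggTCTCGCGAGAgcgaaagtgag
Rps6: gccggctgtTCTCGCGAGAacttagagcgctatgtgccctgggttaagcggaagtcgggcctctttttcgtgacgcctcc

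A C at the annotated start followed by 4 pyrimidines was present in 13 of the 60 matched genes (21.7%), against 3.04% of 1546 other genes at 100 CPM or more and 3.01% of all 27025 genes with an entry. Rps27, Rps21, Rps10, Rpl28, Rpl38 and Rps6 are among the 13, and Rps28 is not. Rps24, Rps26, Rpl34, Rpl37 and Rpl39, whose differences are described further on, are not among them either. An annotated start that is off by a few bases would hide such a run. CTTTCC lay within 25 bases of the start on the transcript strand in 11 of 60 (18.3%), against 3.23% of the other genes at 100 CPM or more and 2.92% of all genes. Over the whole 300 bases and both strands, CTTTCC was found in 53.3% of the matched genes, against 31.7% of the other genes at 100 CPM or more and 29.3% of all genes. CCGGAAG was found there in 41.7%, against 25% and 9.93%. TCTCGCGA was found in 16.7%, against 4.01% and 1.13%. TATAAA, the TATA box core, was found in 10%, against 9.96% and 15.7%. The log2 fold change between groups (defined with the comparison below) had a median of 0.12 in the 29 tested genes with CTTTCC and 0.13 in the 27 without it. For CCGGAAG the medians were 0.14 in 24 genes and 0.13 in 32. For TCTCGCGA they were 0.11 in 10 genes and 0.14 in 46. By the pyrimidine start they were 0.16 in the 13 genes with it (10 positive) and 0.12 in the 43 tested genes without it (37 positive). Both labelled-deleted libraries were above both others in CPM for 7 of those 13 and 12 of those 43. The share among genes at 100 CPM or more was 17.3%. The first 3 motifs were more frequent in these windows than in those of other genes, which was not tested, and the median fold change was nearly the same in members with and without the first and the second.

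Together the 80 genes took 10.3% and 10.8% of the assigned reads in Vav1R63W replicates 2 and 3, and 10.5% and 11.7% in labelled-deleted replicates 2 and 3. Labelled-deleted replicate 3, the library without Themis reads, stood highest, and labelled-deleted replicate 2 lay between the Vav1R63W replicates, so the groups overlap. The group means were 10.5% ± 0.296 (SD, n = 2) and 11.1% ± 0.856 (SD, n = 2), a difference of 0.54 percentage points that is smaller than the SD of the labelled-deleted group. Without labelled-deleted replicate 3 the difference was -0.0648 points, and without labelled-deleted replicate 2 it was 1.15 points. In bulk RNA, more cells rich in these RNAs and more of these RNAs per cell cannot be told apart, nor can fewer and less.

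Small subunit genes took 4.799% and 5.04% of assigned reads in the Vav1R63W replicates and 4.998% and 5.59% in the labelled-deleted replicates. Large subunit genes took 5.53% and 5.71% against 5.48% and 6.10%. The ratio of large to small subunit reads was 1.15 and 1.13 in the Vav1R63W replicates and 1.10 and 1.09 in the labelled-deleted replicates. That ratio was lower in both labelled-deleted libraries than in either Vav1R63W library, with no overlap. The means were 1.14 ± 0.0149 and 1.09 ± 0.0028 (SD, n = 2 each), and an exact two-sided permutation test gave p = 0.333, the smallest that 2 against 2 libraries allow. The share of reads that STAR set aside as mapping to several places was also higher in both labelled-deleted libraries, at 8.94% and 8.24% against 7.86% and 7.39%. Ribosomal protein genes have many processed pseudogenes, and the part of multimapping reads in these ratios was not tested. Reads counted on 290 pseudogenes named after ribosomal proteins made up 0.0640% to 0.0697% of the assigned reads.

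Levels of single genes are given per length, as reads per kilobase of the principal annotated transcript per megaread assigned to genes, and averaged over the 4 libraries. The median was 1537 for the small subunit and 1008 for the large subunit. Rps27, a zinc-finger protein of the small subunit, was highest at 8571, followed by the large subunit gene Rpl13 at 7647. Next came the small subunit genes Rps18 at 5755, Rps14 (deleted in human 5q- syndrome) at 5595 and Rps19 (the gene most often mutated in Diamond-Blackfan anaemia) at 5572, then the large subunit genes Rpl32 at 5351 and Rpl37a at 4129. The ranges over the 4 libraries overlapped in 70 of the 75 neighbouring pairs of this order, so most neighbours do not differ beyond their spread. The pairs that did not overlap were Rpl13 over Rps18, Rpl32 over Rpl37a, and the steps between the lowest genes.

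**Figure D1:**
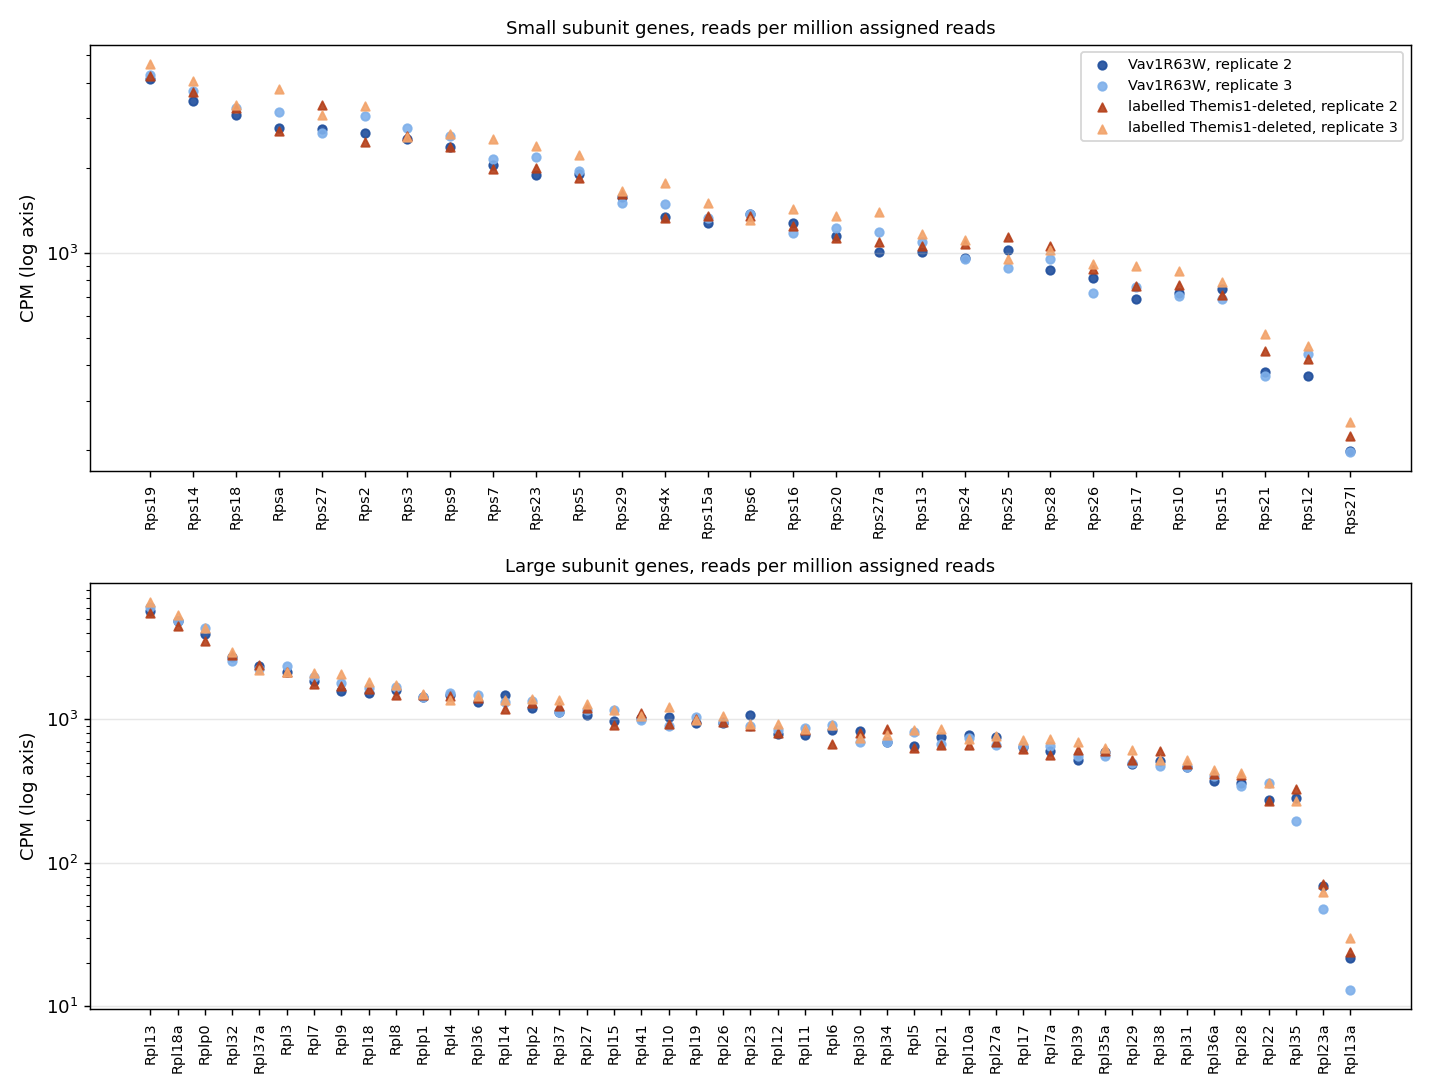
CPM of 74 of the 76 tested genes in each library (log axis, one panel per subunit, genes ordered by mean; circles, Vav1R63W; triangles, libraries labelled Themis1-deleted). Small subunit genes span 219 to 4313 CPM on average, and Rpl23a and Rpl13a lie far below the rest. Of the 76 tested genes 53 are highest in labelled-deleted replicate 3 (69.7%), against 30.9% of genes at 100 CPM or more and 27.0% of all tested genes.

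The lowest levels came with features of the annotation. Rpl13a, a large subunit protein that also acts in interferon-gamma-induced translational silencing, was lowest at 21.1 reads per kilobase per megaread, and 35.4% of its exonic bases are shared on the same strand with the annotated gene Gm45713. Rpl23a followed at 112. It kept only 5.02% of the reads found when each strand is counted apart, and Tlcd1 lies opposite it. The counting used drops reads that overlap 2 genes, so counts of such genes can understate their RNA. Rpl35 kept 26.8% (Wdr38 and Arpc5l lie opposite), Rpl32 kept 81.2% and Rps25 kept 81.9%. In all 5 members with reads were under 90%, and 73 kept at least that. Rpl22, a large subunit protein needed for the development of alpha-beta T cells, was at 154 and kept all of its reads. Among small subunit genes the lowest were Rps15a at 263, Rps20 at 327 and Rps27l at 439. For Rps15a and Rps20 the principal transcripts are annotated at 5179 and 3706 bases, against a median of 843 bases, which lowers a value per kilobase. By reads alone Rps15a was at 1273 to 1498 CPM and Rps20 at 1131 to 1350 CPM, both amid the other members.

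Paralogues whose symbols end in l are Rpl10l, Rpl3l, Rpl39l and Rps27l. Rpl10l, known for expression in testis, and Rpl3l, known for striated muscle, had no read in any library, while their parents Rpl10 and Rpl3 had means of 1197 and 1623 reads per kilobase per megaread. Rpl39l, also a testis paralogue, had 44 reads in Vav1R63W replicate 3 and 0 in the other 3 libraries, against 7349 to 9838 reads for its parent Rpl39. Rps27l, a p53-inducible paralogue of Rps27, was the paralogue with reads in every library, at 200 and 198 CPM in the Vav1R63W replicates and 225 and 253 CPM in the labelled-deleted replicates. Rpl24, the other member that was not tested, had 1 read in each Vav1R63W replicate and 0 in each labelled-deleted replicate. Of its exonic bases 47% are shared on the same strand with Gm28037, so these counts may not reflect its RNA.

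The comparison of the labelled-deleted with the Vav1R63W libraries asks what loss of Themis1 changes in regulatory T cells with mutant Vav1. It was fitted with edgeR's quasi-likelihood F test on all 10216 genes that passed the count filter, with calls made at an adjusted p (Benjamini-Hochberg) under 0.05. No ribosomal protein gene was called (0 of 76, where 0% of all tested genes were called by edgeR). At an unadjusted p under 0.05 edgeR counted 1 member, Rps27, against 4.98% of all tested genes. DESeq2 called 1 member, Rps27, higher in the labelled-deleted libraries, where 0.775% of its genes were called higher. With limma-voom no member was called, where 0 of all tested genes were called in either direction. The authors' deposited table, made with DESeq2, also called only Rps27 among the members, with 0.737% of its genes called higher.

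Log2 fold changes of labelled-deleted over Vav1R63W were mostly small and positive. The median was 0.15 over the 31 small subunit genes and 0.08 over the 45 large subunit genes, against 0.00 over all tested genes and 0.03 over the 2005 tested genes at 100 CPM or more. Positive values were found for 29 of 31 small subunit and 36 of 45 large subunit genes, 65 of 76 in all (85.5%), against 50.1% of all tested genes and 53.8% of those at 100 CPM or more. The median standard error of a member's log2 fold change was 0.13, against 1.01 over all tested genes and 0.26 over genes at 100 CPM or more. For most members the difference was therefore near its own standard error, although these errors were smaller than those of most genes. The members share libraries and scaling, so their signs are not independent.

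**Figure D2:**
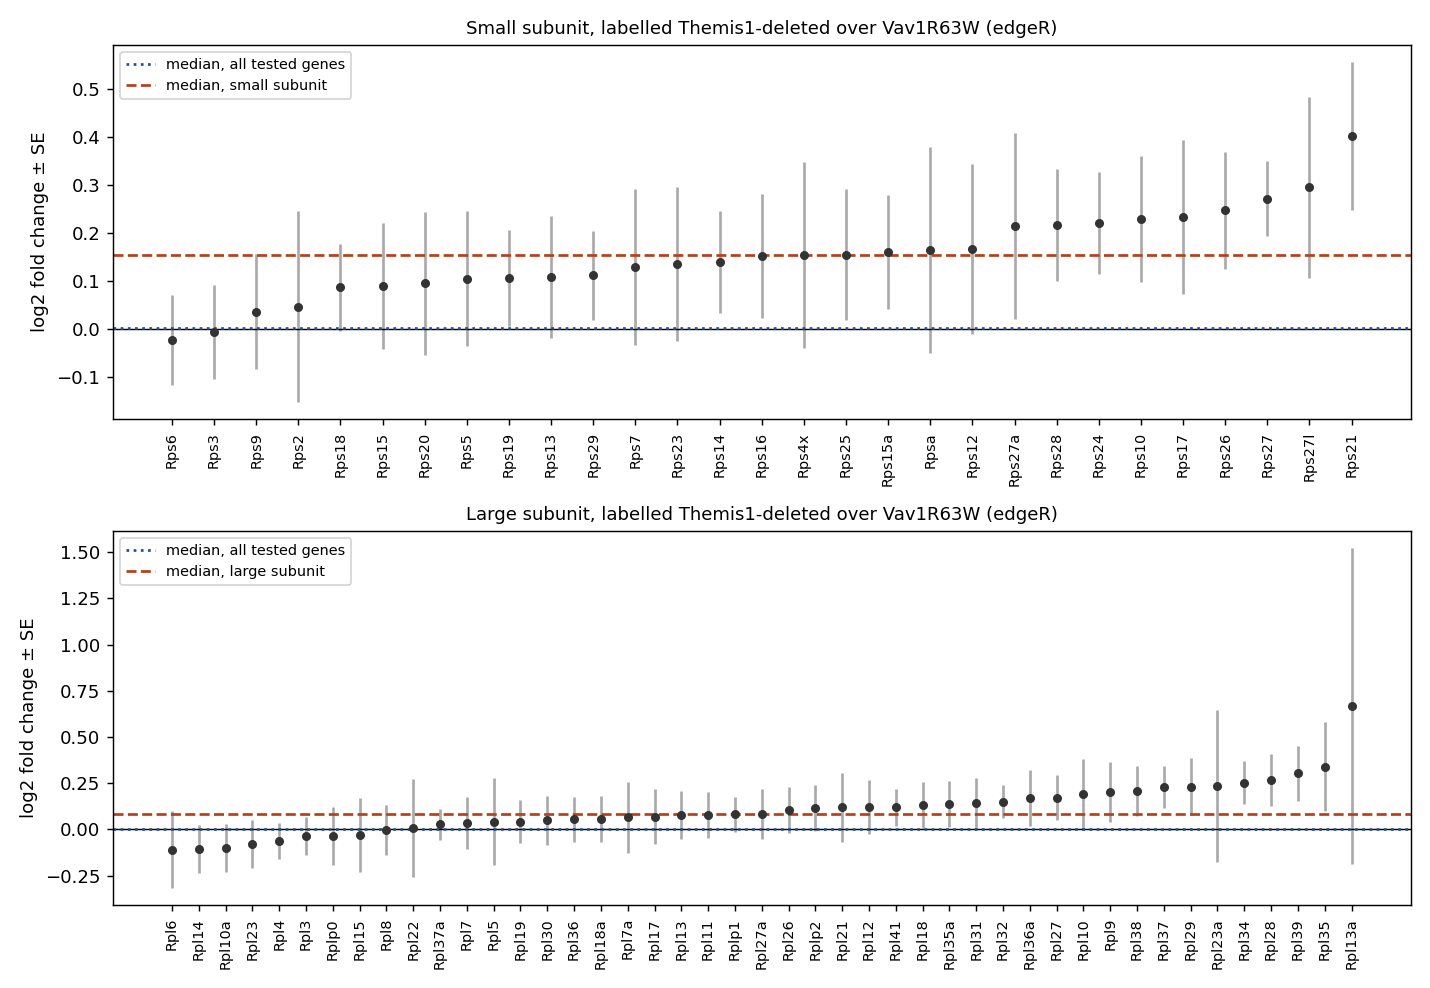
Log2 fold change of labelled-deleted over Vav1R63W with its standard error from edgeR for 74 of the 76 tested genes, ordered by value, one panel per subunit (the y axes differ; medians are over all tested genes of the subunit). The small subunit median of 0.15 and the large subunit median of 0.08 lie above the median of all tested genes at 0.00; Rps6 and Rps3 are the small subunit genes below 0, and none passed the test.

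Which library carries the shift differed between the labelled-deleted replicates. Labelled-deleted replicate 3, without Themis reads, was above both Vav1R63W libraries in CPM for 59 of 76 members (28 of 31 small and 31 of 45 large), against 38.2% of genes at 100 CPM or more. It was below both for 4 members, against 34.4%. Labelled-deleted replicate 2, whose Themis count goes against its label, was above both for 29 members and below both for 24, against 32.6% and 34.2%. The first library was thus high across most of the family, whereas the second had shares near those of other abundant genes. Labelled-deleted replicate 3 also differed beyond the family. Its mitochondrial share was highest (1.11% of assigned reads, against 0.84% to 1.01%), as was its share outside annotated genes (5.28% of reads, against 3.78% to 4.65%). It was lowest of the 4 libraries for 32.2% of all tested genes, against 20.5% to 25.3%. The part of these differences in the shift was not tested. Fitted without labelled-deleted replicate 2, the edgeR medians were 0.25 and 0.19 for the small and large subunit, while the median over all tested genes moved to -0.20 and that over genes at 100 CPM or more was 0.06. In that fit 70 of 77 members were positive, against 55.4% of genes at 100 CPM or more. Fitted without labelled-deleted replicate 3, they were 0.02 and 0.01, with all tested genes at -0.08 and genes at 100 CPM or more at -0.02. There 41 of 77 members were positive, against 47.3% of genes at 100 CPM or more. DESeq2 without labelled-deleted replicate 2, a fit in which the lone library is assumed to vary like the other group, called 10 members higher, among them Rps27, Rps21, Rps10, Rps4x, Rps7, Rpsa, Rpl10, Rpl37 and Rpl39. The background of genes called higher in that fit was 4.85%. Without labelled-deleted replicate 3 it called 2 members higher, Rps27 among them, where 2.52% were called higher. DESeq2 called 0 members without Vav1R63W replicate 2 (4.77% of genes called higher) and 0 without Vav1R63W replicate 3 (3.01%).

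The groups did not overlap, with both labelled-deleted libraries above both Vav1R63W libraries in CPM, for 25 of 76 members (11 small and 14 large subunit genes), against 17.3% of genes at 100 CPM or more and 15.1% of all tested genes. Both were below both for 3 members, Rps6, Rpl10a and Rpl4, against 16.7% of genes at 100 CPM or more. With TMM-scaled library totals the counts were 26 above and 0 below, against 19% and 14.7%, so the order of those 3 genes depends on the scaling.

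Rps27 had the smallest p of the family. It was at 2748 and 2661 CPM in Vav1R63W replicates 2 and 3 and at 3343 and 3077 CPM in labelled-deleted replicates 2 and 3. Both labelled-deleted libraries were above both Vav1R63W libraries by more than either pair was apart. The log2 fold change was 0.27 ± 0.08 (SE), with an adjusted p of 0.90 by edgeR, 0.0375 by DESeq2 and 0.00586 in the authors' deposited table. Leaving out each library in turn moved the edgeR fold change between 0.23 and 0.30. The DESeq2 call was lost when Vav1R63W replicate 2 or replicate 3 was left out.

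Rps21, a small protein of the 40S subunit, was at 380 and 367 CPM in the Vav1R63W replicates and 451 and 517 CPM in the labelled-deleted replicates. Its log2 fold change of 0.40 ± 0.15 (SE) was the largest of the small subunit, with the groups apart and labelled-deleted replicate 3 highest. Rps24 and Rps26 are both mutated in Diamond-Blackfan anaemia. Rps24 was at 959 and 953 CPM against 1076 and 1112 CPM, and Rps26 at 814 and 722 CPM against 876 and 913 CPM. In each of them the labelled-deleted libraries were both higher, and neither passed the edgeR test (log2 fold changes 0.22 ± 0.11 and 0.25 ± 0.12, SE).

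In the large subunit the smallest p-values belonged to Rpl34, Rpl39, Rpl37, Rpl28 and Rpl32. Rpl34 was at 692 and 700 CPM in the Vav1R63W replicates and at 855 and 778 CPM in the labelled-deleted replicates (log2 fold change 0.25 ± 0.12, SE). Rpl39, which lines the exit tunnel for the nascent chain, was at 525 and 559 CPM against 617 and 697 CPM (0.30 ± 0.15, SE). Rpl37 was at 1128 and 1131 CPM against 1246 and 1357 CPM (0.23 ± 0.11, SE). In all 3 the groups were apart, with Rpl34 highest in labelled-deleted replicate 2 and the other two highest in labelled-deleted replicate 3. Rpl28 was at 360 and 344 CPM against 406 and 425 CPM, and Rpl32 at 2730 and 2565 CPM against 2808 and 2963 CPM. The Rpl32 difference (log2 fold change 0.15 ± 0.09, SE) was smaller than that of Rpl28 (0.27 ± 0.14, SE). Adjusted p-values of all these large subunit genes were 1.00 by edgeR.

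The acidic stalk, which recruits the translation factors to the large subunit, is built of Rplp0, Rplp1 and Rplp2. Rplp0, the anchor of the stalk, was at 3911 and 4342 CPM in the Vav1R63W replicates and 3527 and 4373 CPM in the labelled-deleted replicates, so that labelled-deleted replicate 2 was lowest and the groups overlap. Rplp1 was at 1430 and 1437 CPM against 1477 and 1505 CPM, a small step with no overlap. Rplp2 was at 1202 and 1338 CPM against 1309 and 1395 CPM, with overlap. Rpsa, a small subunit protein also known as the laminin receptor precursor, was at 2754 and 3150 CPM against 2704 and 3789 CPM. Labelled-deleted replicates 2 and 3 were thus the lowest and the highest of the 4 libraries for Rpsa, and its log2 fold change was 0.17 ± 0.21 (SE).

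Some members have known ties to signalling or further functions. Rps6, the substrate of S6 kinase downstream of mTORC1, was at 1368 and 1375 CPM in the Vav1R63W replicates and 1347 and 1307 CPM in the labelled-deleted replicates, a log2 fold change of -0.02 ± 0.09 (SE). Rps3, which also binds RelA in NF-kB complexes, was at 2524 and 2756 CPM against 2589 and 2576 CPM, with the labelled-deleted values inside the Vav1R63W range. Rps27a, translated as a fusion with ubiquitin, was at 1008 and 1182 CPM against 1093 and 1399 CPM. Rpl5 and Rpl11, which with 5S rRNA bind Mdm2 when ribosome assembly is disturbed, had log2 fold changes of 0.04 ± 0.24 and 0.08 ± 0.13 (SE). Rpl22 had a log2 fold change of 0.01 ± 0.26 (SE). None of these members passed the edgeR test, and Rps3, Rps27a, Rps6, Rpl5 and Rpl11 were named after their values were seen.

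The length of the coding sequence ordered the fold changes within the family. The longest annotated coding sequence of each member runs from 138 bases in Rpl41 to 1257 bases in Rpl4. Across the 76 genes the edgeR log2 fold change had a Spearman rho of -0.51 with that length (-0.50 over 31 small and -0.52 over 45 large subunit genes), against -0.01 over 1986 tested genes at 100 CPM or more. Genes within a library share depth, scaling and fragment selection, so these are descriptions across genes and not tests. Of the 9 members under 300 bases all had a positive fold change and 8 had groups apart upwards, with a median of 0.22. Of the 44 members from 300 to under 600 bases, 43 were positive and 16 were apart upwards, with a median of 0.14. Of the 23 members of 600 bases or more, 13 were positive and 1, Rpl13a, was apart upwards, with a median of 0.04. Other genes at 100 CPM or more also had higher values in the shortest class, where 58 of 77 were positive with a median of 0.12, against medians of 0.00 and 0.01 in the longer classes. Their shares apart upwards in the same length classes were 22.1%, 17.0% and 16.2%. The class under 300 bases is thin, and over the 67 members of at least 300 bases rho was -0.49.

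**Figure D3:**
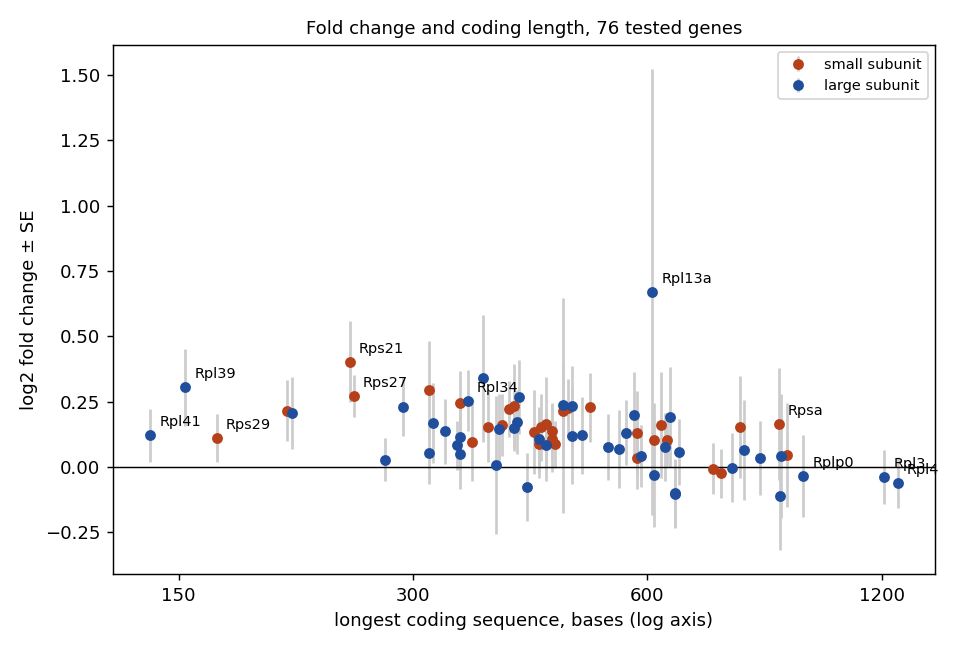
Log2 fold change of labelled-deleted over Vav1R63W with its standard error (edgeR) against the longest annotated coding sequence in bases (log axis) for the 76 tested genes; red, small subunit; blue, large subunit. Short members such as Rps21 and Rpl39 lie above 0, the longest, Rpl3 and Rpl4, lie just below it, and Rpl13a has a wide error.

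The relation with length came mainly from labelled-deleted replicate 2. Its log2 CPM minus that of Vav1R63W replicate 2 had a rho of -0.62 with coding length over the 76 members, and minus that of Vav1R63W replicate 3 a rho of -0.70. For labelled-deleted replicate 3, without Themis reads, the same values were 0.05 and -0.25. Within groups rho was 0.32 for Vav1R63W replicate 3 minus replicate 2 and 0.50 for labelled-deleted replicate 3 minus replicate 2. These 6 pairs share libraries with each other. Over 1986 tested genes at 100 CPM or more, rho for the same pairs lay between -0.15 and 0.12. There labelled-deleted replicate 3 minus replicate 2 had a rho of -0.15, opposite in sign to that of the members. A relation with length among the members thus also separated libraries of the same label. It was weaker between the Vav1R63W replicates, and the labelled-deleted pair holds labelled-deleted replicate 2 itself. Relative to Vav1R63W replicate 2, the median log2 CPM (TMM-scaled) of labelled-deleted replicate 3 was 0.24, 0.26 and 0.25 higher in the 3 length classes from short to long, a nearly flat profile. In labelled-deleted replicate 2 it was 0.24, 0.11 and -0.06, falling with length. In Vav1R63W replicate 3 it was 0.00, 0.07 and 0.14. The short members were thus higher in both labelled-deleted libraries, whereas the long members were higher in Vav1R63W replicate 3 and labelled-deleted replicate 3. Whether fragment size or RNA quality differed between these libraries was not tested.

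**Figure D4:**
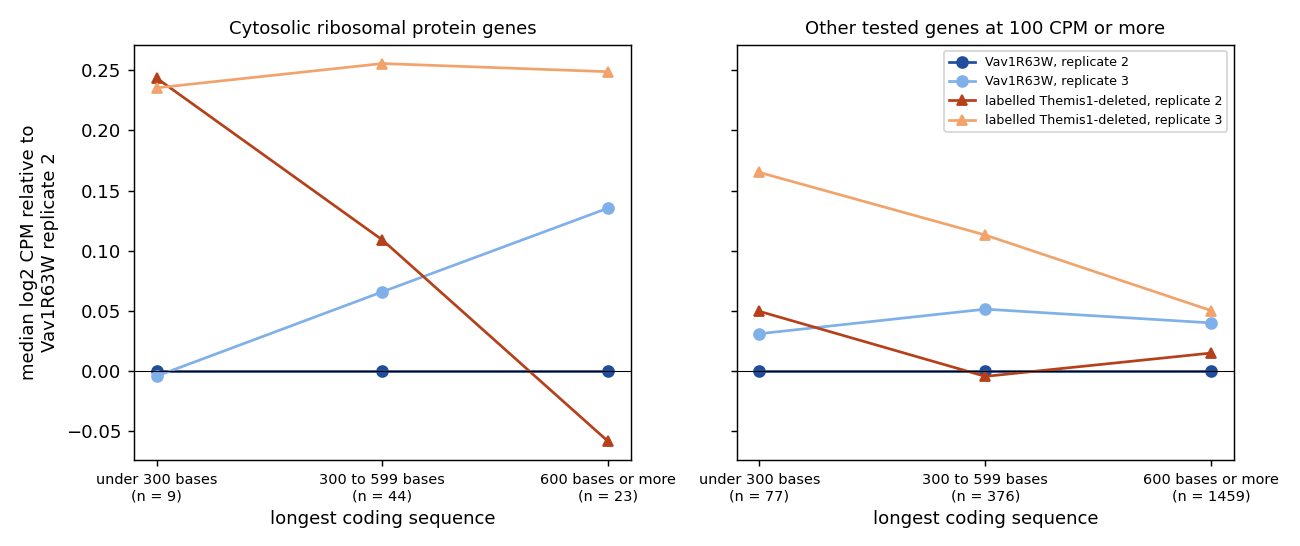
Median log2 CPM (TMM-scaled) relative to Vav1R63W replicate 2 in 3 classes of coding length, for the ribosomal protein genes (left) and for other tested genes at 100 CPM or more (right), one line per library. On the left labelled-deleted replicate 3 is flat near 0.25, while labelled-deleted replicate 2 goes from 0.24 to -0.06; on the right all medians lie between 0.00 and 0.17.

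Genes that make, regulate or accompany the ribosome varied in direction from list to list. The median log2 fold change of each list lay within the quartiles of all tested genes, -0.55 to 0.50. So did the medians of both subunits. A median varies less than single genes do, so this does not tell the lists from other genes. None of the 5 lists drawn from general knowledge had a gene called by edgeR, where 0% of all tested genes were called. Among 25 translation-linked and ribosome-associated genes, 10 had a positive and 15 a negative log2 fold change, with a median of -0.02. Rack1, which sits on the small subunit and was named after its values were seen, was at 1272 and 1435 CPM in the Vav1R63W replicates and 1292 and 1666 CPM in the labelled-deleted replicates. Eif3e, a subunit of initiation factor eIF3, was at 335 and 324 CPM against 466 and 517 CPM, with both labelled-deleted libraries well above both others. Its log2 fold change was 0.60 ± 0.15 (SE), and its adjusted p was 0.90 by edgeR, 0.175 by DESeq2 and 0.0081 in the authors' deposited table. Eif4b, an initiation factor whose mRNA is itself a TOP mRNA, was at 121 and 101 CPM against 155 and 209 CPM.

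Of 36 ribosome assembly factors, 14 were positive and 22 negative, with a median of -0.17. Those with the smallest p were Nop10, a protein of the H/ACA complexes that modify rRNA, at 324 and 309 CPM against 421 and 449 CPM, and Rrp9, a U3 particle protein, at 78.4 and 66.3 CPM against 119 and 159 CPM. Both were higher in both labelled-deleted libraries. Of the 36 factors, 5 were higher in both labelled-deleted libraries than in both others in CPM, against 15.1% of all tested genes. In the other direction, 8 were lower in both, against 18.7%. Nop10 had an adjusted p of 0.0406 in the authors' deposited table, 0.90 by edgeR and 0.432 by DESeq2. Of 13 tested RNA polymerase I genes, 6 were positive and 7 negative (median -0.07). In that list Taf1c, a subunit of the polymerase I selectivity factor, was below the Vav1R63W range at 120 and 77.7 CPM against 54.0 and 36.2 CPM, and Cd3eap was at 7.86 and 7.85 CPM against 19.8 and 38.0 CPM. Neither passed the edgeR test.

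The mTORC1 and TOP mRNA list had 12 positive and 10 negative of 22 tested genes, with a median of 0.01, but holds the widest single difference. Mtor, the kinase of mTORC1, had 178 and 181 reads in the Vav1R63W replicates and 0 and 1 reads in the labelled-deleted replicates. The ratio of summed reads, Vav1R63W over labelled-deleted and scaled by TMM totals, was 372 with an exact 95% binomial interval from 66.4 to 14740, which covers counting error only. The edgeR log2 fold change of Mtor, which takes in the spread between libraries, was -8.15 ± 2.48 (SE). Its level was low, at 12.7 and 12.6 CPM in the Vav1R63W replicates. Low genes of this list also had 0 reads in single libraries, such as Tsc1 (165 and 0 reads against 86 and 644) and Rps6kb1 (192 and 335 against 621 and 0). The adjusted p of Mtor was 0.90 by edgeR and 0.0139 by DESeq2 (1.1% of genes called lower), and the authors' deposited table gives none. Rptor, the mTORC1 scaffold, named after its values were seen, had 609 and 250 reads against 37 and 0. Larp1, which binds the TOP sequence, was also named after its values were seen and was at 74.0 and 48.5 CPM against 57.3 and 45.0 CPM, with overlap. Larp4 was at 42.6 and 34.7 CPM against 57.9 and 164 CPM. Of 11 tested quality control genes, 7 were positive and 4 negative, with a median of 0.37. Ipo9, an import receptor for ribosomal proteins, was at 13.8 and 33.0 CPM against 80.7 and 90.2 CPM, and Abce1, the ribosome recycling factor, was at 90.5 and 60.4 CPM against 99.2 and 138 CPM. Both were higher in both labelled-deleted libraries, and neither passed.

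**Figure D5:**
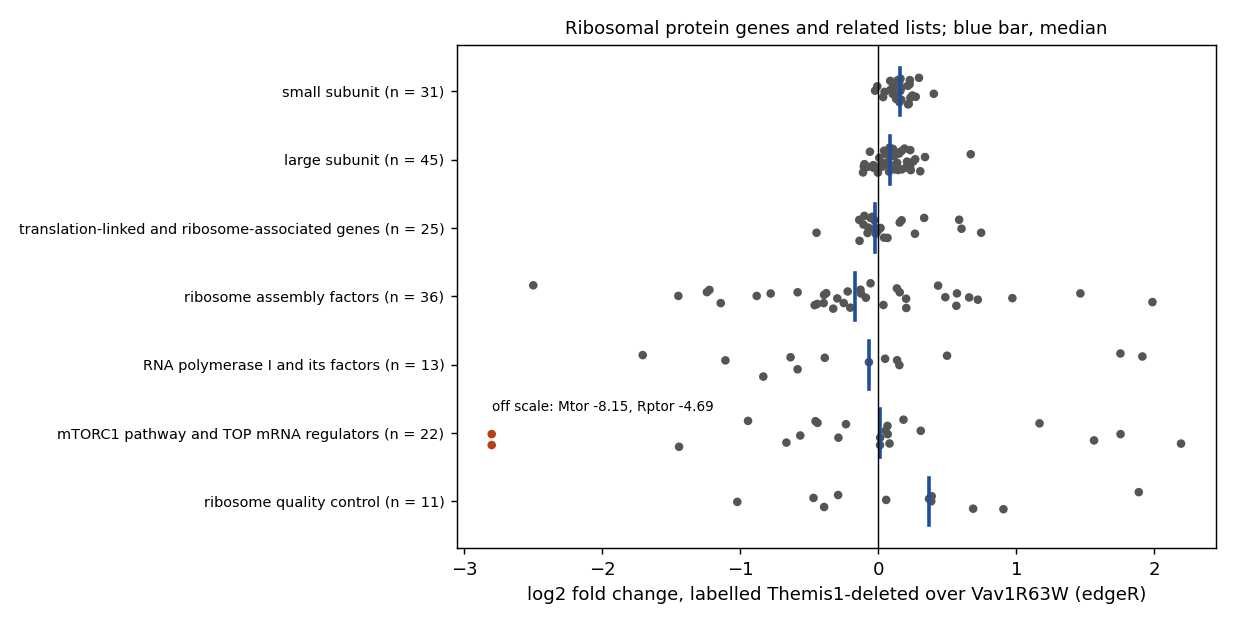
Log2 fold change of labelled-deleted over Vav1R63W (edgeR) for each tested gene of both subunits and of the 5 related lists; blue bars mark medians, vertical scatter is arbitrary, and Mtor (-8.15) and Rptor (-4.69) are drawn at the left edge. The ribosomal protein genes form the narrowest groups, with medians of 0.15 and 0.08, while the assembly factors spread from -2.50 to 1.99 around a median of -0.17. Spread goes with precision: the median standard error is 0.13 for the members and 1.01 over all tested genes. The assembly factors at the extremes, Tsr1 and Nat10, have standard errors of 2.49 and 2.20.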

How the data were processed

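RNA was counted per gene in 4 libraries. Trim Galore (trimming), STAR (alignment), FastQC and MultiQC (quality checks) are named per the submitters' processing notes. The series' design text names Ensembl release 90, while the notes name mm9. The deposited files hold raw read counts, and the authors' table adds their DESeq2 comparison, per the file headers: a linear ratio of the groups, its log2 value, and raw and adjusted p-values. The table's 4 normalized per-sample columns were not used. The unstranded count column was used. The TruSeq kit named in the labels marks no strand, so overlapping genes cannot be separated. The 4 summary lines of each file, 21.1% to 23.1% of reads, were left out.

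The main fit was edgeR 4.0.16 (R 4.3.3): TMM, filterByExpr (minimum count 10, total 15), robust quasi-likelihood F test, two-sided, no block, Benjamini-Hochberg over all tested genes. Standard errors were derived from each log2 fold change and its F statistic. CPM use library totals. Alternatives were DESeq2 1.42.0, limma-voom (limma 3.58.1), other scalings and filters, strand sums, a replicate block and leaving out each library. Others were chosen after seeing the data: DESeq2 without each library, and the coding-length classes. The fits were tested on simulated data with changes far larger than those of the members. That does not show whether differences as small as these would be found. Gene lengths, overlaps and identities come from GENCODE M21 (GRCm38) by gene ID.

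Members and lists were chosen with earlier results of these data known. The named genes are the targeted gene and cell markers, the stalk and Rpsa, per subunit the 5 smallest p and the 3 highest and 3 lowest levels per length, paralogues ending in l with their parents, members with no read, and per related list the 2 smallest p. Values of 2 members are not reported here; counts and medians include them.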

Additional observations from a re-analysis of the deposited data

How the results depend on the processing

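Under each edgeR and limma-voom alternative 0 members were called (limma-voom called 0 of all tested genes). DESeq2 called 1, and, in fits chosen after seeing the data, 10 without labelled-deleted replicate 2 and 2 without labelled-deleted replicate 3. Leaving out each library in turn, edgeR medians ranged from 0.0187 to 0.25 for the small subunit and from 0.0117 to 0.19 for the large subunit, and the share difference from -0.0648 to 1.15 percentage points. With the replicate number as a block, edgeR called 0 members and the medians were 0.14 and 0.08. Same-numbered libraries had deviations correlated at 0.02, and with 2 pairs the numbers are not shown to pair the samples. Only members named by the rule given with the processing were checked for changes of sign, not the other members described in the text. Of the 26 with a fold change, 8 changed sign under at least 1 of 12 alternatives. Their leave-one-out ranges were -0.0517 to 0.39 for Rpl10, -0.0845 to 0.21 for Rpl13, -0.25 to 0.25 for Rpl22, -0.13 to 0.0581 for Rpl3, -0.0032 to 0.0477 for Rpl37a, -0.23 to 0.13 for Rplp0, -0.0697 to 0.23 for Rps20 and -0.13 to 0.40 for Rpsa. Rpl22 was also at -0.0129 with limma-voom and -0.019 with library totals. Outside the family the ranges were -0.0162 to 0.45 for Foxp3, -0.39 to 0.20 for Il2ra, -0.71 to 8.62 for Hba-a1 and -10.55 to 1.68 for Themis, which was also at -3.05 with limma-voom and -2.93 with the block. The cause of these changes was not tested. The median standard error of a member was 0.13, about the size of the family's median difference, and the precision rests on 2 libraries a group.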

Other observations

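Members were also split by whether the annotation holds a pseudogene named after them, a match that misses pseudogenes with other names. The 59 tested members with at least 1 had a median log2 fold change of 0.13 (53 positive), and the 17 tested members without had 0.09 (12 positive). Tlcd1, the gene opposite Rpl23a, had 0, 18, 56 and 34 reads in the unstranded counts of Vav1R63W replicates 2 and 3 and labelled-deleted replicates 2 and 3, but 15842, 17153, 17487 and 18856 in the sums of both strand columns, values close to the 16805, 17816, 18564 and 19668 of Rpl23a itself. Wdr38, opposite Rpl35, had 0 unstranded reads in all 4 libraries and 10892, 10823, 9668 and 11653 in the strand sums. With a kit that marks no strand, the same reads can be assigned to either gene of such a pair once the strands are counted apart.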
